A study of Homo sapiens with 11 samples.

Results

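The uroplakins UPK1A, UPK1B, UPK2 and UPK3A and the prostate stem cell antigen PSCA are surface proteins of the urothelium, and their transcripts were followed in RT4 cells, a line established from a bladder papilloma, on plastic and on a matrix gel. The genes were identified by symbol alone. All probes assigned 1 gene symbol, that of one of these 5 genes, were taken, which gave 6 of the 22464 probes and 5 of 14941 gene symbols on the array. UPK1A had 2 probes and each other gene had 1. A further probe, assigned to 5 genes including UPK1A, was left out. No other probe of these genes was analysed here.

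Umbrella cells, the outermost cells of the bladder lining, cover their surface with stiff plaques built of uroplakins. UPK1A and UPK1B are tetraspanins, and each pairs with a partner that crosses the membrane once, UPK1A with UPK2 and UPK1B with UPK3A, before the pairs leave the endoplasmic reticulum and assemble into plaques. PSCA, a small protein of the LY6 family held at the cell surface by a lipid anchor, is known from the outer layers of the urothelium and from several carcinomas.

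RT4 cells grown on Matrigel were set against RT4 cells grown on plastic. Matrigel is a basement membrane extract which the study takes as a model of a cancer-remodeled extracellular matrix (crECM), and the question was how growth on it changes gene expression. The crECM group held 9 one-color arrays, a single array at 12 h and on each of days 1, 2, 3, 4, 6, 7, 8 and 9 after the cells left plastic. The plastic group held 2 arrays, the second labelled as the culture that preceded the move to Matrigel. All cells came from 1 established line, cultured in the same medium on the gel at every time, and no genotype or drug differed between the groups. Because the crECM arrays were time points and nothing said that the plastic arrays were separate cultures, the p-values measured only the spread between these arrays. In such bulk RNA, fewer cells expressing a gene and less RNA per cell cannot be told apart.

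Values were deposited in units of the standard deviation (SD) of the low-intensity noise peak of each array above a zero point, as log10, after the arrays had been adjusted to each other. They were put back on the linear scale here, and 3 SD was the level the study treats as expressed. The raw intensity was examined beside them. Its median was between 224 and 482 on crECM and 140.45 and 162 on plastic. Measured on the raw intensities, between 76.3% and 85.4% of the probes on crECM, and 44.5% and 53.2% on plastic, lay over 3 SD of the noise peak of their array. In the deposited values these shares were between 83.9% and 86.6% on crECM and 85.2% and 86.4% on plastic. Counted in noise SDs from the mode of the noise peak, the raw intensity that received a deposited value of 3 SD lay between 0.794 and 2.70 on crECM, above the mode, but at -0.355 and -0.416 on plastic, below it. The substrate and the handling of the arrays cannot be told apart. RT4 cells should carry epithelial transcripts, and 7 of 9 epithelial marker genes averaged at least 5 SD on crECM and 7 of 9 on plastic. Of 19 markers of other cell types, such as blood, muscle and liver, 12 averaged at least 5 SD on crECM and 15 on plastic. These averages were means of log10 values without a floor, which 1 array minimum can pull under 5 SD. ACTA2, with a median of 16.4 SD on crECM, was counted as under 5 SD there. The deposited level alone did not separate the expected from the foreign transcripts. Nor did the raw level, where PTPRC, HBB, GFAP and MYH7 exceeded 3 noise SDs on all 9 crECM and both plastic arrays. COL1A2 and CD34 exceeded it on none.

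The 2 tetraspanin uroplakins differed in how their probes stood to the noise. UPK1A (chromosome 19, 35666517-35678481, GRCh38.p14) was above it on every array by both of its probes, and UPK1B (chromosome 3, 119173598-119205143) on none. Their promoters are shown because promoter sequences were at hand for these 2 of the 5 genes. Whether the promoters bear on the difference in signal was not tested. Each runs 5′ to 3′ on the plus strand over 300 bases, 250 before the annotated start of the gene and 50 after it, as given by RefSeq for GRCh38.p14. UPK1A spans chr19:35666267-35666566 and UPK1B spans chr3:119173348-119173647, and capitals mark the motifs found.
UPK1A: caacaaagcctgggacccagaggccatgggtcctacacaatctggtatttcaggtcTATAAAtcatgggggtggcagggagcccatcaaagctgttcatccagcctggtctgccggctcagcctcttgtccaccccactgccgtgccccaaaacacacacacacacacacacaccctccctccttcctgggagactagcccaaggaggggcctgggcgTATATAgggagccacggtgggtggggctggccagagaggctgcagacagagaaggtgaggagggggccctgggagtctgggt
UPK1B: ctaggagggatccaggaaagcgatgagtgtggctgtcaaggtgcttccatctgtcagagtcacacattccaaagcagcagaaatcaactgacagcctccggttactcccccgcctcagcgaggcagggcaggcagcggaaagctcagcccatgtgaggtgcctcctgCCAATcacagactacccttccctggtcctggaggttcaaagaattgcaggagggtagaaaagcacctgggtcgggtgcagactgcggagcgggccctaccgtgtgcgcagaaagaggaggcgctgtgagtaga

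The UPK1A window was 60.7% G and C and held the TATA-like letters TATATA beginning at position -32 from the start and TATAAA at -194. The UPK1B window was 58.3% G and C and held a CCAAT box at -83. Over 35116 promoter windows of this length, TATATA was found in 3.99%, TATAAA in 11.5% and CCAAT in 34.6%, on either strand. No match was found in either window for the GATA site AGATAA (10.3% of all windows), the SP and KLF site GGGCGG (45%), the nuclear receptor site AGGTCA (13.8%), the forkhead site GTAAACA (3.42%), the grainyhead site AACCGGTT (0.134%), the octamer ATTTGCAT (1.77%), the AP-1 site TGACTCA (4.95%) or the E26 site GGAAGT (22.8%). These 11 motifs were searched on both strands, and none of the 3 matches overlapped another. The matches describe the letters only, and no binding was measured here.

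In the deposited values PSCA alone of the 5 genes was called higher on crECM, while UPK1A and UPK2 were at like levels on both substrates. In raw intensity UPK1A, UPK2 and UPK3A also averaged higher on crECM, where the array medians were higher. By raw intensity UPK3A lay near the noise, and UPK1B was not detected above the noise on any array. Probes had to exceed 3 SD on 2 or more arrays to be tested, which left 21480, and p-values were adjusted over all of them by the Benjamini-Hochberg method. By limma, 1 of the 5 member probes that passed this filter was called, against 45.2% of all probes tested, 22.8% higher and 22.4% lower on crECM. The sixth probe, that of UPK1B, did not pass the filter.

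**Figure D1:**
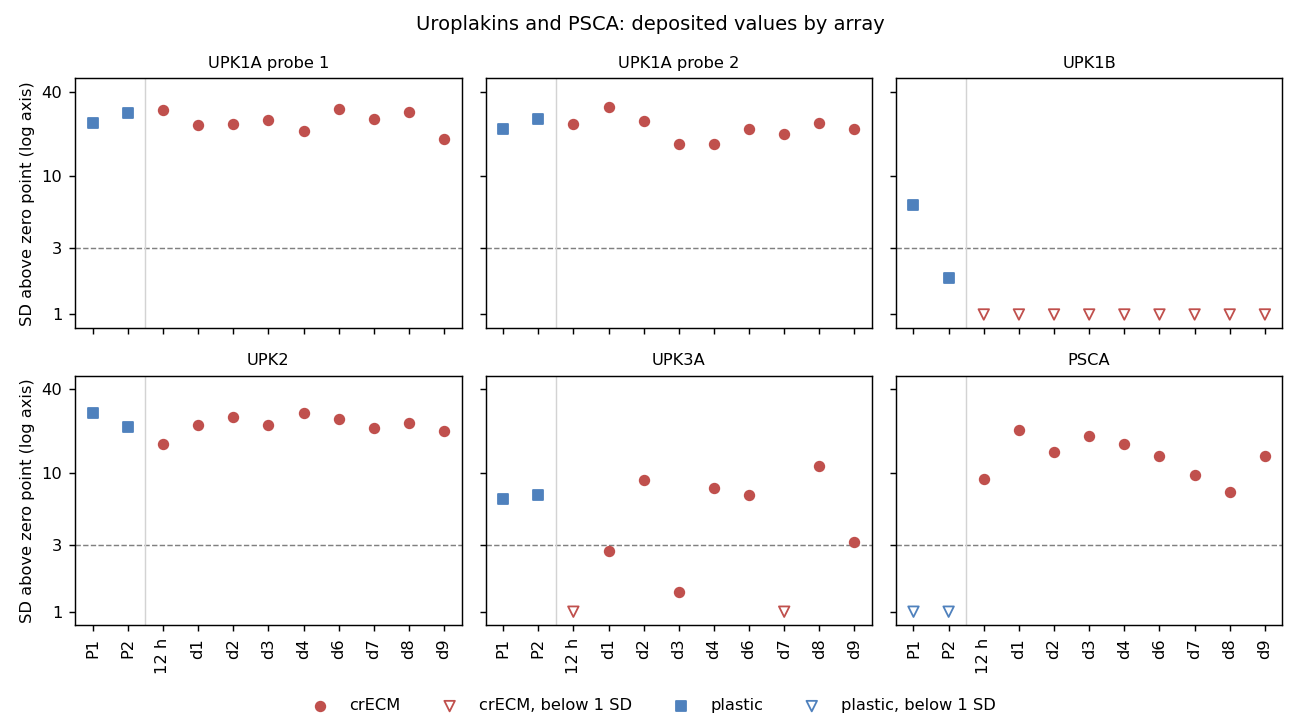
Deposited values of the 6 probes on each array, in SD above the zero point on a log axis, with crECM arrays as red circles in order of time and the plastic arrays (P1, P2) as blue squares at the left as the baseline. Open triangles stand for values below 1 SD, drawn at 1, and the dashed line marks 3 SD. PSCA lay between 7.33 and 20.2 SD on all 9 crECM arrays and below 1 SD on both plastic arrays, while the UPK1A and UPK2 probes overlapped between the groups.

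PSCA is encoded on chromosome 8 (142670297-142682725, GRCh38.p14). On crECM its deposited value was 9.08 SD at 12 h, 20.2 on day 1, 14.1 on day 2, 18.5 on day 3, 16.1 on day 4, 13.1 on day 6, 9.64 on day 7, 7.33 on day 8 and 13.2 on day 9. On plastic it was 0.00306 and 0.00412 SD, the lowest value that the array held in each case. All 9 crECM arrays lay over 5 SD and both plastic arrays at the bottom, with no overlap. Over the probes tested, 22.4% had all crECM values above both plastic values. Among all 22464 probes, 439 (1.95%) showed this pattern, and 8.8% were at the lowest value on both plastic arrays.

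In raw intensity the groups of PSCA did not overlap either, although the order of the days differed. The share of all probes without overlap was not counted on this scale. The groups of both UPK1A probes did not overlap on it either, and the array medians were higher on crECM. The raw intensities of PSCA were 113, 404, 321, 406, 342, 285, 115, 161 and 231 on crECM from 12 h to day 9, and -28.5 and -63.6 on plastic. In noise SDs of the own array, the crECM values ran between 2.57 and 11.9 with a median of 6.69, and 8 of 9 were over 3. The plastic values were 1.43 and 2.03 noise SDs below the mode of the noise peak, at -1.43 and -2.03, so that PSCA was not detectable on plastic and the size of the change depends on the floor given to low values. Within its array PSCA ranked between percentile 16.5 and 40.2 on crECM, with a median of 25.9, and at percentiles 3.98 and 1.40 on plastic.

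With values under 3 SD set to 3 SD, PSCA was higher on crECM than on plastic (log2 change 2.10, standard error 0.35, 95% confidence interval 1.33 to 2.86, limma adjusted p = 0.000560), and it was higher on 9 of 9 crECM arrays. The probe passed the filter only through the crECM arrays, where it is high, so a difference was built into its being tested. The log2 change was 3.68 with a floor of 1 SD and 1.36 with a floor of 5 SD (limma adjusted p = 1.0e-05 and 0.00876). After a rebuild of the values from raw intensity, where 45.4% of the probes were called, the log2 change was 1.10 (limma adjusted p = 0.00605). The call was lost when the floor was set first and the arrays were then quantile normalized (log2 change -0.07, limma adjusted p = 0.875, with 33.7% of the probes called), a procedure that gives all plastic probes tied at the floor the mean of many quantiles, and with normalization before the floor the log2 change was 0.63 (adjusted p = 0.0422).

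**Figure D2:**
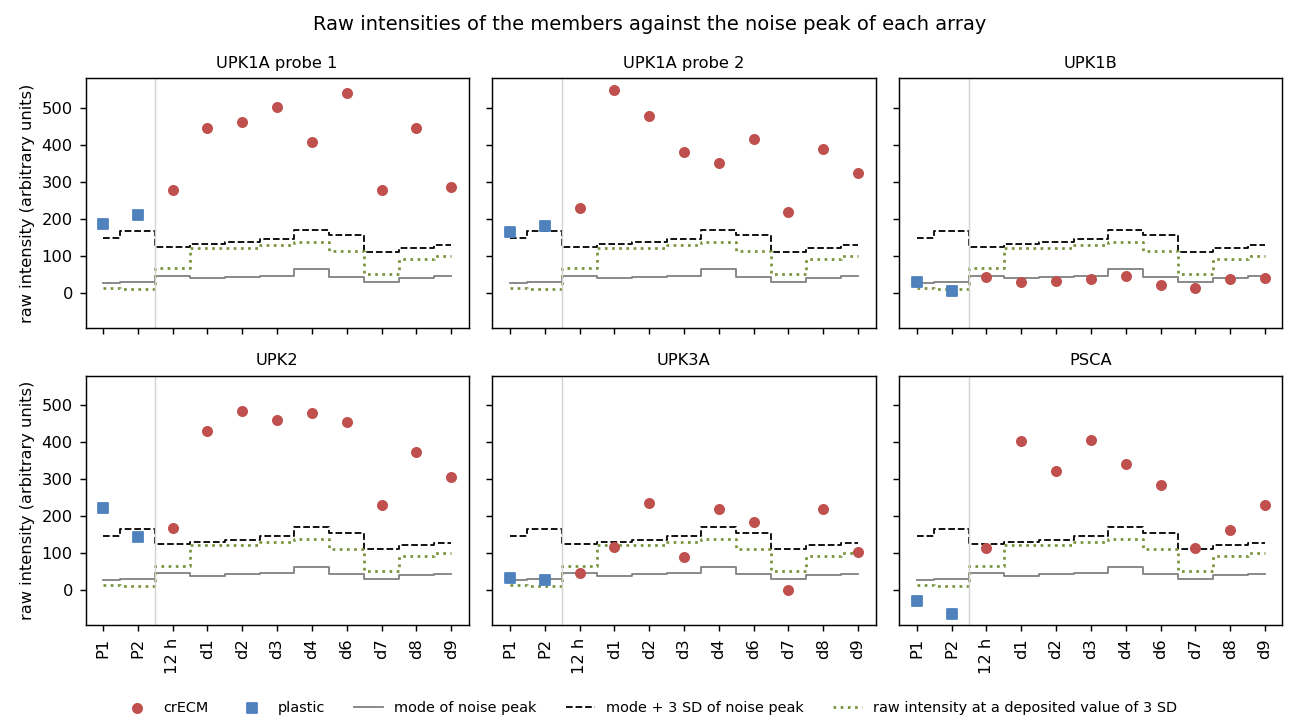
Raw intensity of each probe by array (linear axis, arbitrary units), crECM as red circles in order of time and plastic as blue squares at the left. The grey line is the mode of the noise peak of the array, the dashed line the mode plus 3 noise SDs, and the dotted green line the raw intensity that received a deposited value of 3 SD. The green line ran above the mode on crECM and below it on plastic, where the PSCA intensities of -28.5 and -63.6 lay under all lines.

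UPK1A, the tetraspanin partner of UPK2, was measured by 2 probes, which allowed a check of one transcript by separate spots. On crECM probe 1 had a lowest value of 18.3 SD on day 9, a median of 24.9 and a highest value of 30.3 on day 6, and on plastic 23.8 and 28.1 SD. Probe 2 had a lowest value of 16.9 SD, a median of 21.8 and a highest value of 31.1 on day 1 on crECM, and on plastic 21.6 and 25.3 SD. For both probes the plastic values fell inside the crECM range. The means of probe 1 were 25.0 ± 3.97 SD on crECM (SD, n = 9) and 25.9 ± 3.05 SD on plastic (SD, n = 2), and those of probe 2 were 22.3 ± 4.36 and 23.5 ± 2.63 SD.

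Neither UPK1A probe passed the test. The log2 change was -0.07 for probe 1 (standard error 0.18, 95% confidence interval -0.45 to 0.32, limma adjusted p = 0.780) and -0.10 for probe 2 (standard error 0.21, 95% confidence interval -0.55 to 0.36, limma adjusted p = 0.725). These intervals measured only the spread between these arrays on this scale, and set no bound on a change of UPK1A. The outcome depended on the scale of the values. In raw intensity probe 1 averaged 405 on crECM and 199 on plastic, probe 2 averaged 371 on crECM and 173 on plastic, and in neither case did the groups overlap. The raw medians of the arrays did not overlap either, and the share of all probes without overlap was not counted on this scale. With values rebuilt without the regression that adjusts the arrays to each other, the log2 changes were 1.53 and 1.60 (limma adjusted p = 9.7e-05 and 0.000320), while the median over all probes was 1.26.

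The 2 probes of UPK1A followed each other little from day to day. Probe 1 minus probe 2 on the log2 scale averaged 0.17 with an SD of 0.34 over the 9 crECM arrays, ranging from -0.42 on day 1 to 0.56 on day 3, and probe 1 was the higher on 6 of 9. On plastic the same difference was 0.14 and 0.15. Their correlation over the 9 crECM arrays was r = 0.141 (exact permutation p = 0.718, adjusted p = 0.897), with Spearman's rho = -0.0167 (exact permutation p = 0.982, adjusted p = 0.982) and r = 0.230 without the 2 arrays farthest from the median.

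UPK2 (chromosome 11, 118956298-118958559), the single-span partner of UPK1A, was also above 3 SD on all 11 arrays. Its values on crECM were 16.1 SD at 12 h, 22.1 on day 1, 25.1 on day 2, 21.9 on day 3, 26.7 on day 4, 24.3 on day 6, 21.0 on day 7, 22.7 on day 8 and 20.1 on day 9, and on plastic 26.9 and 21.4 SD. The 12 h array was the lowest of the 11 and plastic replicate 1 the highest, while plastic replicate 2 lay among the remaining crECM values. The means were 22.2 ± 3.11 SD on crECM (SD, n = 9) and 24.2 ± 3.89 SD on plastic (SD, n = 2). The log2 change was -0.12 (standard error 0.17, 95% confidence interval -0.50 to 0.26, limma adjusted p = 0.583). In raw intensity UPK2 averaged 376 on crECM and 182 on plastic. It lay between 4.70 and 14.2 noise SDs above the mode on crECM, and 4.89 and 2.48 on plastic, so 1 of the 2 plastic arrays did not reach 3 noise SDs.

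UPK3A (chromosome 22, 45284949-45295874), the single-span partner of UPK1B, varied more than UPK1A and UPK2. On crECM its values were 0.265 SD at 12 h, 2.73 on day 1, 8.93 on day 2, 1.39 on day 3, 7.78 on day 4, 6.95 on day 6, 0.000302 on day 7, 11.3 on day 8 and 3.15 on day 9. On plastic they were 6.44 and 6.92 SD. It was over 3 SD on 5 of 9 crECM arrays and on both plastic arrays, and the crECM values lay on either side of the plastic values. The log2 change was -0.47 (standard error 0.54, 95% confidence interval -1.66 to 0.72, limma adjusted p = 0.505).

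The raw intensities of UPK3A gave another picture than the deposited values. They were 47.0, 116, 236, 91.1, 219, 183, 0.844, 218 and 103 on crECM from 12 h to day 9, and 32.1 and 28.8 on plastic. In noise SDs the crECM values were 0.0486, 2.51, 6.21, 1.34, 4.39, 3.74, -1.09, 6.65 and 2.08, and the plastic values 0.0963 and -0.00981. On the raw scale, 4 of 9 crECM arrays and 0 of 2 plastic arrays were thus over 3 noise SDs, and the deposited 6.44 and 6.92 SD on plastic were given to intensities at the mode of the noise peak. With rebuilt values the log2 change was 0.32 (limma adjusted p = 0.354), opposite in sign. With quantile normalization it was -0.67 (adjusted p = 0.0272) after the floor and -0.36 (adjusted p = 0.00484) before it. After the floor, its plastic values were the 5.18 and 6.01 given to all probes tied at the floor, PSCA and UPK1B among them. The direction of UPK3A was therefore not settled.

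UPK1B, the tetraspanin partner of UPK3A, gave no signal above the noise. Its deposited value on crECM was the lowest of the array on 8 of 9 arrays and 0.0121 SD on day 8, and on plastic it was 6.10 and 1.83 SD. All crECM values lay below both plastic values, as for 25.3% of all probes, but the raw intensities of the groups overlapped. They were 44.6, 31.0, 33.2, 37.0, 45.1, 20.4, 13.4, 38.2 and 40.2 on crECM from 12 h to day 9, and 30 and 5.5 on plastic. In noise SDs they ran between -0.621 and -0.0443 on crECM and were 0.0434 and -0.519 on plastic, so that 0 of 11 arrays reached 3 noise SDs. At this signal over background a level of UPK1B was not detectable on either substrate.

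In a limma fit without the filter, over all 22464 probes, 44.7% of which were called, UPK1B passed with a lower value on crECM (log2 change -0.51, standard error 0.18, 95% confidence interval -0.90 to -0.12, adjusted p = 0.0381). This call rested on plastic replicate 1, since plastic replicate 2 was itself under the floor. Without that array the log2 change was 0, and with rebuilt values it was 0 as well. Among all 22464 probes, 3.38% were at the lowest value on at least 8 of 9 crECM arrays, and 1.76% were so and also over 1 SD on both plastic arrays.

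**Figure D3:**
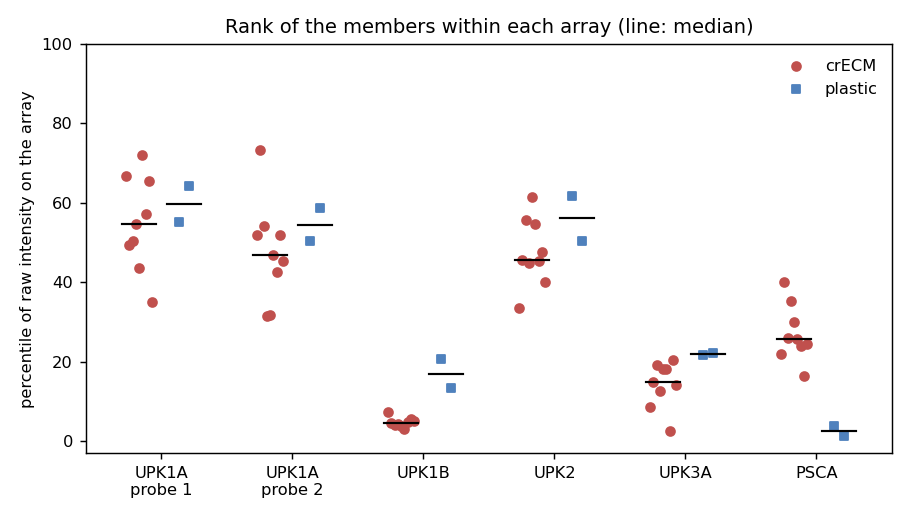
Percentile of the raw intensity of each probe among all probes of its array, crECM as red circles and plastic as blue squares to the right of them, with black lines at the medians. PSCA ranked between 16.5 and 40.2 on crECM and at 3.98 and 1.40 on plastic, UPK1A and UPK2 stood in the middle of the arrays on both substrates, and UPK1B and UPK3A stood in the lower part.

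Ranks within an array do not depend on how arrays are scaled to each other. By rank, UPK1A probe 1 stood between percentile 35.2 and 72.2 on crECM and at 55.2 and 64.3 on plastic, and probe 2 between 31.6 and 73.2 on crECM and at 50.3 and 58.7 on plastic. UPK2 stood between 33.6 and 61.5 on crECM and at 61.8 and 50.5 on plastic. UPK3A stood between 2.72 and 20.6 on crECM and at 21.9 and 22.4 on plastic, and UPK1B between 3.19 and 7.51 on crECM and at 20.7 and 13.4 on plastic. By rank alone UPK3A and UPK1B were below plastic on 9 of 9 crECM arrays. The share of all probes that were so by rank was not counted, so this is no result about these 2 genes. The plastic arrays held a larger part of their probes below the mode of the noise peak, 19.9% and 22.6%, against 6.34% to 9.87% on crECM, so a probe at the mode ranked higher there, and its part in the order of these 2 genes was not tested.

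**Figure D4:**
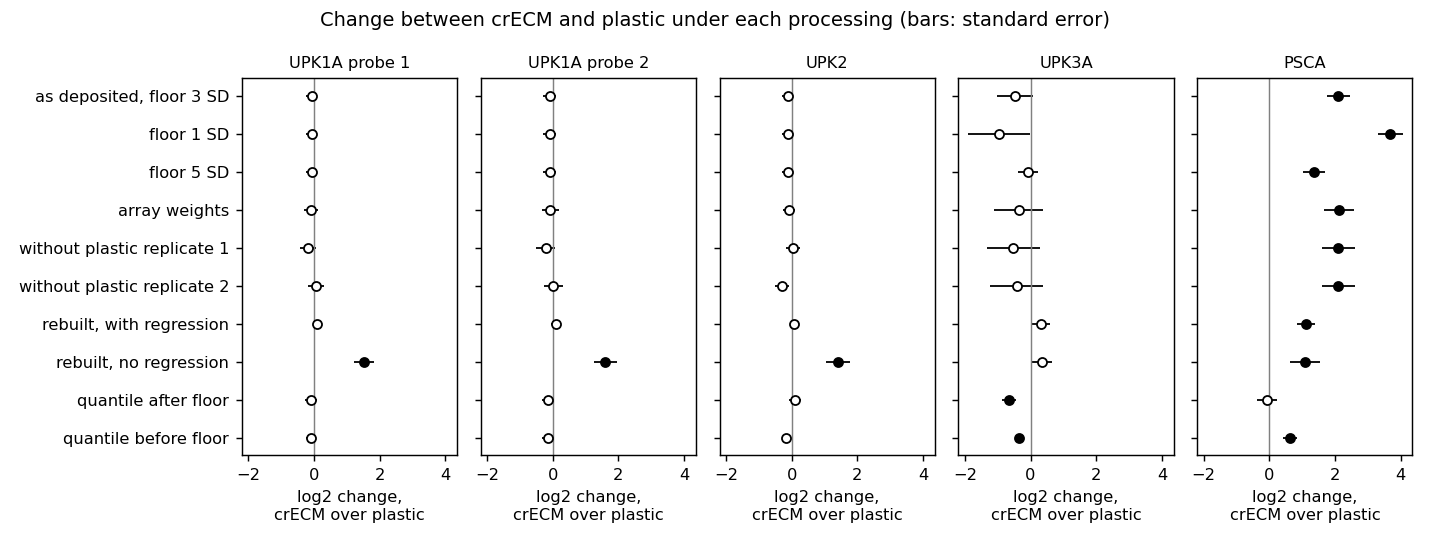
Log2 change of crECM over plastic for the 5 tested probes (horizontal axis) under 10 ways of processing (rows), with bars of 1 standard error and filled points where the limma adjusted p was under 0.05. PSCA was at or above 0.63 in every row except quantile normalization after the floor, where it was -0.07, while the UPK1A and UPK2 probes stayed near 0 except without the regression step.

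Over the days on crECM no member passed a test for a trend. The slope per doubling of the time was tested by limma on the 9 crECM arrays, where 1 of 21480 probes (0.00466%) passed. The slopes of the members were -0.07 for PSCA (adjusted p = 0.974), 0.07 for UPK2 (adjusted p = 0.837), -0.04 and -0.08 for the UPK1A probes (adjusted p = 0.971 and 0.842) and 0.18 for UPK3A (adjusted p = 0.904) on the log2 scale. Leaving out single arrays moved the slope of PSCA between -0.32, without the 12 h array (adjusted p = 0.867), and -7.4e-05. UPK1B had no spread above the floor and was not tested.

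The 12 h array was also set against the 8 arrays of days 1 to 9, with the lone array assumed to vary like the others. By limma 6.23% of the 21480 probes were called and none of the 5 tested member probes, of which 1 had an unadjusted p under 0.05. That probe was UPK2, with a log2 difference of -0.51 (standard error 0.16, limma adjusted p = 0.114). PSCA differed by -0.56 (adjusted p = 0.640), UPK3A by -0.77 (adjusted p = 0.729), and the UPK1A probes by 0.29 and 0.12 (adjusted p = 0.613 and 0.939). For PSCA, the low values were not limited to the 9.08 SD of 12 h, with 9.64 SD on day 7 and 7.33 SD on day 8.

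Because uroplakins are assembled in pairs, the 10 pairs of the 5 tested probes were correlated over the 9 crECM arrays. The highest correlation joined UPK2 and UPK3A, with r = 0.674 (exact permutation p = 0.0362, adjusted p = 0.362) and Spearman's rho = 0.705 (exact permutation p = 0.0425, adjusted p = 0.380), and r = 0.750 without the 2 arrays farthest from the median of UPK2. These genes are not partners in one heterodimer, and the pair did not pass the adjustment. UPK2 and its partner UPK1A gave r = -0.218 with probe 1 (exact permutation p = 0.577, adjusted p = 0.884) and r = -0.218 with probe 2 (exact permutation p = 0.574, adjusted p = 0.884). The 10 values of r ran from -0.494, between PSCA and UPK1A probe 1, to 0.674, and 0 of 10 passed the adjustment, against 1 at an unadjusted p under 0.05. UPK3A and its partner UPK1B could not be correlated above the floor, where UPK1B had no spread. Without a floor UPK1B stands for the lowest deposited value of the array on 8 of 9 arrays, and PSCA had r = -0.919 with it (exact permutation p = 0.000411, adjusted p = 0.00616 over 15 pairs). The part of this array floor in the daily values of PSCA was not tested.

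**Figure D5:**
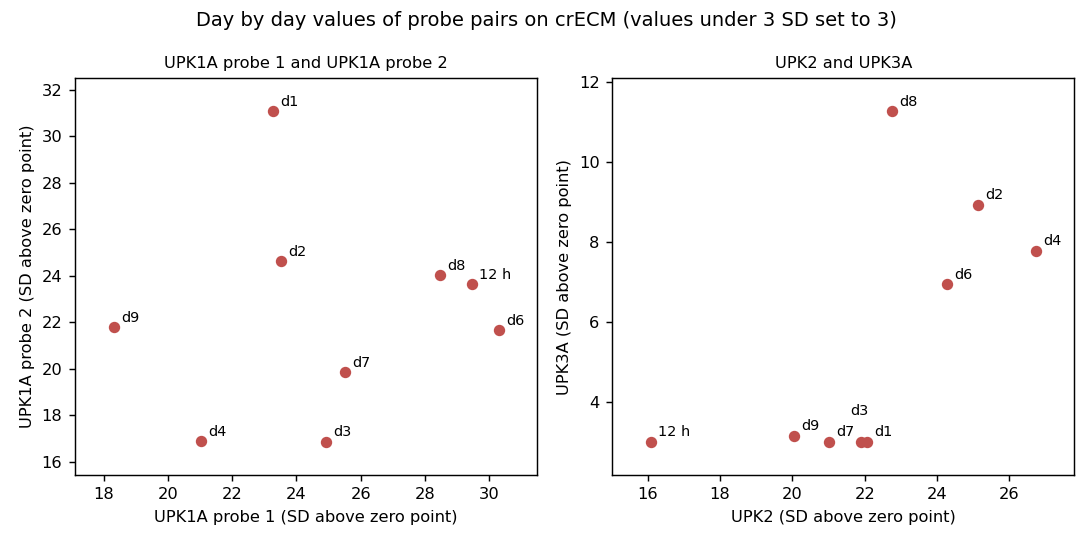
Values of 2 pairs of probes on the 9 crECM arrays (SD above the zero point, values under 3 set to 3, 1 point for each time). The left panel sets the 2 probes of UPK1A against each other (r = 0.141), and the right panel sets UPK2 on the horizontal against UPK3A on the vertical axis (r = 0.674), where 4 points lie at the floor of UPK3A.

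The genes most like each member over all 11 arrays were drawn from 14513 genes and are given as a description, since the points share arrays and their scaling. PSCA was closest to CDK15 (r = 0.979), the homeobox gene HOXD13 (0.972) and SKIL, a corepressor of SMAD signaling (0.972), and 342 genes had r over 0.9 with it. Over the 9 crECM arrays alone these 3 values were 0.911, 0.930 and 0.858. UPK2 was closest to STAG2, a cohesin subunit (r = 0.939), ISLR (0.918) and POLR2B, a subunit of RNA polymerase II (0.914). UPK1A probe 1 was closest to ARMC2 (r = 0.934), SIDT1 (0.916) and TSC22D2 (0.902), and probe 2 to DUSP11 (0.787), CWF19L2 (0.779) and BIRC7 (0.777), so the 2 probes of UPK1A shared none of these 3 genes. UPK3A was closest to ROM1, a tetraspanin of photoreceptors (r = 0.880), HEATR9 (0.873) and ELOC (0.827).

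Genes that act with the 5 members or resemble them were counted by lists, which leave out the members themselves, each read beside the share called over all probes tested (22.8% higher, 22.4% lower) and their median log2 change of 0.06. Genes under 3 SD on both plastic arrays, as PSCA was, had passed the filter only through crECM, where they are high. Genes under 3 SD on all 9 crECM arrays had passed it only through plastic, where they are high. Of those named below, these were SYTL2, CD82, LY6G5C, LY6E, ERBB2, ITGB4, COL1A2 and CD34. Their crECM values were all set to the floor, so their small p-values hold no spread from crECM. Of 17 genes of uroplakin plaques and apical trafficking, 3 were higher and 4 lower on crECM by limma, 41.2% in all against 45.2% over all probes, 10 did not pass, and the median log2 change was -0.06. VAMP8, a SNARE of regulated exocytosis, had a median of 78.0 SD on crECM and 57.6 and 54.7 SD on plastic (log2 change 0.48, adjusted p = 0.00204). VPS33A, a subunit of the tethering complexes of late endosomes and lysosomes, had a median of 18.6 SD on crECM and 13.96 and 12.19 SD on plastic (log2 change 0.53, adjusted p = 0.0163). In raw intensity VPS33A did not exceed 3 noise SDs on either plastic array. AQP4, a water channel, fell to a median of 21.6 SD on crECM, against 39.9 and 46.9 SD on plastic (log2 change -0.93, adjusted p = 0.00448). SYTL2, a Rab27 effector, was under 3 SD on all 9 crECM arrays, against 7.39 and 5.11 SD on plastic (log2 change -1.03, adjusted p = 6.6e-06). UPK3B, a further uroplakin named here after its values were seen, had a median of 27.7 SD on crECM (lowest 5.12, highest 52.1) and 35.4 and 30.2 SD on plastic (log2 change -0.49, limma adjusted p = 0.550). For SYTL2 the raw intensity did not reach 3 noise SDs on any of the 11 arrays, as for UPK1B.

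Part of all calls lower on crECM shared this feature. Of 4815 such probes, 1473 (30.6%) had raw intensities under 3 noise SDs on all 11 arrays, 1654 (34.4%) had them under that level on both plastic arrays, and of 4901 called higher, 34 (0.694%) had raw intensities under 3 noise SDs on all crECM arrays. PSCA belonged to the 4901, of which 76.9% were over 3 noise SDs on all 9 crECM arrays, where PSCA was on 8. With rebuilt values 7147 probes were called higher and 1786 lower, so that 80% of the calls were higher, against 50.4% as deposited.

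Of 29 other tetraspanins tested, the family of UPK1A and UPK1B, 8 were higher and 7 lower on crECM (51.7% in all), and the median log2 change was -0.04. PRPH2, known from photoreceptor discs, had a median of 16.8 SD on crECM (lowest 11.8, highest 19.4) and was under 3 SD on both plastic arrays (log2 change 2.36, limma adjusted p = 6.0e-06). TSPAN33, known from B cells and red cell precursors, had a median of 50.4 SD on crECM and 9.61 and 10.2 SD on plastic (log2 change 2.31, limma adjusted p = 1.2e-07). In raw intensity TSPAN33 did not exceed 3 noise SDs on either plastic array. TSPAN16 and CD82 were lower on crECM, with log2 changes of -1.72 and -1.45 (limma adjusted p = 0.000450 and 4.3e-08), but neither reached 3 noise SDs on plastic in raw intensity. On crECM TSPAN16 exceeded that level on 3 arrays, against the direction of its call, and CD82 on 0. The remaining 14 did not pass, nor did UPK1A.

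Of 19 other genes of the LY6 and uPAR domain family, to which PSCA belongs, 4 were higher and 4 lower on crECM (42.1% in all, near the 45.2% of all probes), and the median log2 change was -0.03. LYPD6, a modulator of WNT and nicotinic receptors, had a median of 13.9 SD on crECM and was at the lowest value of both plastic arrays (log2 change 2.01, limma adjusted p = 0.00138). LY6G6D had a median of 17.5 SD on crECM and 5.62 and 6.18 SD on plastic (log2 change 1.66, limma adjusted p = 9.6e-05). Its raw intensity did not exceed 3 noise SDs on either plastic array. LY6G5C and LY6E were under 3 SD on all 9 crECM arrays, with log2 changes of -1.57 and -1.01 (limma adjusted p = 3.0e-09 and 5.4e-09), and had raw intensities under 3 noise SDs on all 11 arrays.

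Of 26 other genes of urothelial differentiation, 2 were higher and 6 lower on crECM (30.8% in all against 45.2% over all probes), 18 did not pass, and the median log2 change was -0.07. CLDN3, a tight junction protein, had a median of 12.7 SD on crECM and was at the lowest value on both plastic arrays (log2 change 1.85, limma adjusted p = 0.0113), though it lay under the floor on 1 crECM array as well. MUC1, an apical mucin, had a median of 19.4 SD on crECM and 11.6 and 7.31 SD on plastic (log2 change 1.05, limma adjusted p = 0.00251). Its raw intensity did not exceed 3 noise SDs on either plastic array. CDH1, the epithelial cadherin, fell to a median of 18.9 SD on crECM, against 33.4 and 39.2 SD on plastic (log2 change -1.11, limma adjusted p = 0.0330). ERBB2, a receptor tyrosine kinase, was lower in the deposited values (log2 change -1.30, limma adjusted p = 5.8e-08), with raw intensities under 3 noise SDs on all 11 arrays, and 4 of the 6 lower genes had plastic intensities under that level on both arrays.

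Of 11 genes of urothelial basal cells, the layer opposite to the umbrella cells, 1 was higher and 2 were lower on crECM (27.3% in all), and the median log2 change was -0.03. CD44, a hyaluronan receptor, fell to a median of 29.9 SD on crECM, against 41.6 and 41.2 SD on plastic (log2 change -0.47, limma adjusted p = 0.00547). NGFR, a neurotrophin receptor, had a median of 5.54 SD on crECM and was under 3 SD on both plastic arrays (log2 change 1.12, limma adjusted p = 0.0434), and ITGB4, the hemidesmosomal integrin, was lower (log2 change -0.85, limma adjusted p = 6.5e-08) with raw intensities under 3 noise SDs on all arrays. Of the 19 markers of other cell types, 8 were higher and 4 lower (63.2% in all), with a median log2 change of 0.60. Among these CD3E of T cells (log2 change 2.64, limma adjusted p = 1.4e-08) and INS of pancreatic beta cells (log2 change 2.20, limma adjusted p = 1.7e-05, under 3 SD on both plastic arrays) were higher. CD3E did not exceed 3 noise SDs in raw intensity on either plastic array. COL1A2 of fibroblasts (log2 change -1.24, limma adjusted p = 4.2e-09) and CD34 of blood progenitors and vessels (log2 change -0.95, limma adjusted p = 4.5e-08) were lower, with raw intensities under 3 noise SDs on all 11 arrays. Other markers of fibroblasts and vessels were called the other way, COL1A1 (log2 change 0.60, limma adjusted p = 0.0256) and CDH5 (log2 change 1.05, limma adjusted p = 0.00121). Whether they bear on the PSCA result was not tested.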

How the data were processed

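RNA of RT4 cells was reverse transcribed, labeled with Cy3 and hybridized to spotted long-oligonucleotide arrays. The authors deposited, per array, raw intensity values, and one table in log10, in which each value had been counted in SDs of the noise peak from its zero point and the arrays had been brought together by robust linear regression. The SD and zero point of each array are not given in the sources used here. The deposited log10 values were put back on the linear scale, values under 3 were set to 3, and log2 was taken. The 5 genes and all lists were chosen with earlier results of these data known.

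Of 22464 probes, 17043 had 1 gene symbol, 172 several and 5249 none in the platform annotation, and 16952 were matched by gene identifier to RefSeq names (GRCh38.p14), from which positions and promoters were taken. For a listed gene with several probes, the probe with the highest mean was used. From each list, up to 2 genes that passed an adjusted p of 0.05 were named in either direction, by size of change. Named for likeness were the 3 genes with the highest Pearson correlation with a member.

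Tests used limma 3.58.1 in R 4.3.3 (lmFit, eBayes with trend) on the 21480 probes that exceeded 3 SD on 2 or more arrays, with Benjamini-Hochberg adjustment and a threshold of 0.05. The 9 time points on crECM formed 1 group, as in the methods of the study. Where a group had arrays under 3 SD, the size of the change depends on that floor, and no bound was taken from it. An array has no count depth, and precision was limited by how few arrays there were. The noise peak was measured on the deposited raw intensity values. Its mode was the highest kernel density below the first quartile of the array, and its SD the distance below the mode holding the share of lower values expected within 1 SD, a detail set with the values in view. Pairs were tested by two-sided exact permutation over all pairings, in Python 3.11.15 with scipy 1.17.1. The fit was tested on simulated data. As alternatives, values were rebuilt from raw intensities with and without the regression, and quantile normalization, normal scores, other floors and filters, no variance trend, array weights and leaving out each array were tried.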

Additional observations from a re-analysis of the deposited data

Results flagged for a closer look

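The highest and the lowest crECM value of each tested probe were compared with the gap that would set a single array apart among 9 (a ratio of gap to range of 0.493). Of 5 groups examined, 0 had such an array. The nearest was UPK2, whose 12 h value of 16.1 SD had a ratio of 0.434.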

How the results depend on the processing

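PSCA passed the test in 24 of 25 settings, which is no independent support, since it had passed the filter only through the crECM arrays. In these its log2 change was 0.63 to 3.68 with a floor, 11.82 without one, where plastic is at the array minimum, and 2.01 to 2.20 as each array was left out. UPK1B, fitted without a filter, passed in 9 of 19 settings. Its log2 change ranged from -1.02 to 0 as single arrays were left out, and was 0 without plastic replicate 1. As each crECM array of days 1 to 9 was left out in turn, it stayed at -0.51 with limma adjusted p of 0.0525 to 0.0543. No paired analysis was possible because the crECM arrays carry no replicate numbers that match those of plastic. The causes of the changes below were not tested.

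With rebuilt values, 1786 probes were called lower, the log2 changes were 0.076 for UPK2, 0.11 and 0.10 for the UPK1A probes, 0.32 for UPK3A and, without a filter, 0 for UPK1B. The trend then called 0 probes and 12 h against later days 546, and r was 0.0512 for PSCA and 0.0265 for UPK3A, each with UPK1A probe 2. Without the regression step 15669 probes were called, 15616 higher and 53 lower. UPK2 was then at 1.41, the UPK1A probes at 1.53 and 1.60 and UPK3A at 0.34, with 70 trend calls and 3127 calls at 12 h. The UPK1A trend of probe 1 was 0.0086, and at 12 h its probes were at -0.41 and -0.60 and UPK2 at -1.25. Quantile normalization after the floor gave 2993 lower calls, PSCA -0.072, UPK2 0.10 and UPK3A -0.67, with 0 trend calls and a PSCA trend of 0.039. Quantile normalization before the floor, chosen after seeing the data, gave 2999 higher calls and UPK3A -0.36. A filter of at least 6 arrays gave 3075 lower calls and 732 at 12 h, by construction from fewer probes. Normal scores gave 0 trend calls and 862 at 12 h, a fit without the variance trend 0 trend calls, and array weights 0 trend calls, 0.012 for the trend of UPK1A probe 1 and -0.26 for that of PSCA. Without a floor the UPK3A trend was -0.13, r with UPK3A was 0.305 for PSCA, -0.137 for UPK1A probe 1 and 0.172 for probe 2, and of 15 pairs 1 passed, that of PSCA with UPK1B (r = -0.919), whose values there are mostly array minima. Without the 12 h array r was 0.186 for UPK2 and UPK1A probe 1, and 0.0413 for UPK1A probe 2 and UPK3A.

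As each array was left out, the calls ran from 5708 (without plastic replicate 2) to 10697, those higher from 2639 to 5452 and those lower from 3069 to 5245. The log2 change ran from -0.29 to 0.041 for UPK2, -0.19 to 0.055 and -0.21 to 0.019 for the UPK1A probes and -0.62 to -0.39 for UPK3A. Calls ran from 0 to 1 for the trend and from 988 to 1566 at 12 h, and the trend from -0.32 (without 12 h) to -7.4e-05 for PSCA, 0.086 to 0.29 for UPK3A, -0.034 to 0.092 for UPK2 and -0.063 to 0.018 for UPK1A probe 1.

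On plastic the raw signal of UPK1B, UPK3A and PSCA did not exceed 3 noise SDs and that of UPK2 did on 1 array, so for these the plastic level is limited by signal over background. UPK1B, SYTL2, ERBB2, ITGB4 and other genes listed above were under this level on both substrates.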
